A study of Rattus norvegicus with 16 samples.

Results

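The genes described are the Rab GTPases with their numbered partner proteins, GDP dissociation inhibitors (GDI), and the Vps (vacuolar protein sorting) genes of the rat. They were taken by name, as every protein-coding gene whose symbol starts with Rab or Vps and a digit, plus GDI genes, from a deposited table of RNA immunoprecipitation (RIP) of bone cancer pain dorsal horn. The rule found 74 of the 8671 genes in that table, of which 8420 are protein-coding. They include 39 Rab GTPases, 7 regulators or effectors of Rabs, 26 Vps genes and the inhibitor gene Gdi2. The label of membrane traffic holds for the roles of the great majority but not for Vps72, which encodes a subunit of chromatin complexes that handle a histone variant. Members of these families that have no row in the table were not analysed here.

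Rab proteins are small GTPases that mark the membranes of the secretory and endocytic routes. In the GTP-bound state a Rab sits on its membrane and recruits effectors such as tethers and motor adaptors, and in the GDP-bound state it is extracted by GDI and kept soluble until it is loaded again by an exchange factor. Vps proteins were named from yeast sorting mutants and work mostly as subunits of complexes: retromer retrieves cargo from endosomes, HOPS and CORVET tether endosomes and lysosomes, ESCRT forms multivesicular bodies, and GARP and EARP tether carriers at the Golgi and at recycling endosomes. In neurons these routes supply synaptic vesicles and set which receptors are at the surface.

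The series measured N4-acetylcytidine (ac4C), an acetylated cytidine in RNA, in the dorsal horn of the spinal cord, where pain fibres end. There were 3 normal (control) and 3 bone cancer pain replicates, each an ac4C immunoprecipitate (IP) with its own input, and each pair gave 1 list of peaks. The RIP experiment held bone cancer pain tissue alone, as 2 IP and 2 input libraries, so it offers no control of the condition. All 16 libraries carry the genotype label WT. The strain, age and sex of the rats, the tumour cells used, and whether a replicate was 1 rat or a pool are not given in the sources used here, so each p-value measures only the spread between these replicates. The labels name no antibody for the RIP and repeat for it the ac4C kit of the other libraries. The names of the bone cancer pain peak files carry the abbreviation CFA where the sample labels have CIBP, and the groups below follow the sample labels.

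Read totals were not given with the values, so depth is unknown and no counting interval can be set. The RIP table gives a signal per gene and library in a unit that is not stated, and it was not shown to be scaled to transcript length, so single genes are compared between libraries and not with each other. Median input signals over sets of genes, given below, carry the same limit. Among markers of the cells a dorsal horn sample could hold, 6 of 6 dorsal horn neuron genes, 4 of 4 astrocyte, 4 of 4 oligodendrocyte, 4 of 4 microglial and 3 of 5 general neuronal genes had a row in the table. So did 2 of 3 endothelial genes and, of genes from outside the cord, the haemoglobin gene Hbb alone of 5 for muscle and blood, and 2 of 4 genes for Schwann cells and sensory ganglia. The table holds only genes past the authors' limits of IP over input. A row therefore does not measure a cell type, and a missing row does not show that it was absent. Mean input signals were 30.1 for Hbb and 6.31 to 204 for the Schwann cell and ganglion genes. They were 2.96 to 157 for astrocyte and 26.7 to 1061 for oligodendrocyte genes, under the same limit on comparing genes. The part of other tissue in the values below was not tested.

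In the RIP, all 74 genes had both IP signals above both input signals. This is no finding, because the table holds only genes past the authors' limits, and the genes were drawn from it. The values are therefore a description. The median log2 fold of IP over input in the authors' deposited table was 2.40 for the 74 genes and 2.40 for all protein-coding genes, and 37 of the 74 lay above the latter. The members ran from 1.31 for Vps37a to 3.66 for Rab37 in the authors' deposited table, with quartiles of 2.08 and 2.73. Of the 74 genes, 8 were above a log2 fold of 3 (10.8%, against 8.04% of protein-coding genes) and 14 below 2 (18.9%, against 20.5%) in the authors' deposited table. Both pairs ranked the genes alike. Across the 74 genes, which are not independent replicates, the folds of pair 1 and pair 2 had a Pearson r of 0.82 and a Spearman rho of 0.82. The folds of the pairs differed by more than 0.5 on the log2 scale in 7 genes, by most in Vps33a (0.93) and Rab13 (0.75).

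**Figure D1:**
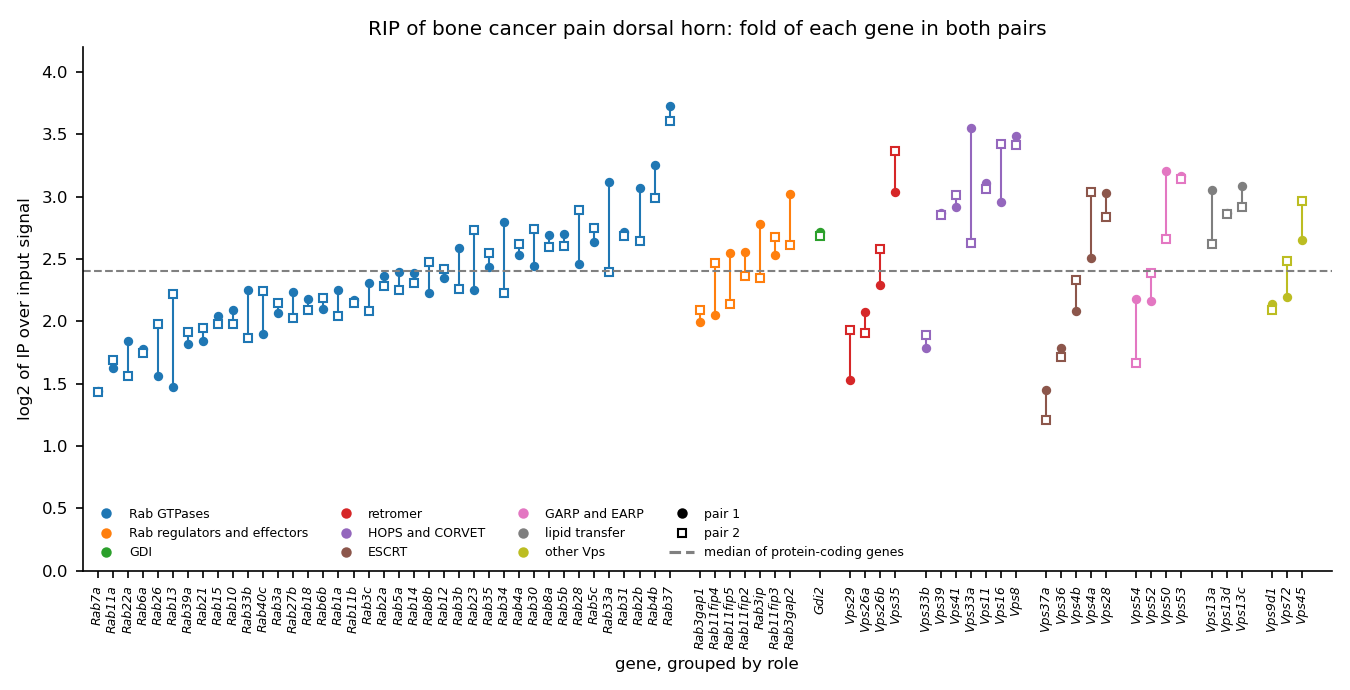
Log2 of IP over input signal (y axis) for 73 of the 74 genes (x axis, grouped and coloured by role) in RIP pair 1 (filled circle) and pair 2 (open square). The dashed line is the median log2 fold of protein-coding genes, 2.40. The genes grouped as HOPS and CORVET other than Vps33b lie above it, and Rab37 is the highest gene.

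For the Rab GTPases the authors' deposited table gave a median log2 fold of 2.32, with 15 of 39 above the protein-coding median. Rab3a, the Rab of synaptic vesicles, had input signals of 73.0 and 66.6 and IP signals of 306 and 294. Its log2 fold in the authors' deposited table was 2.11, and the pairs gave 2.07 and 2.14. Rab7a, which acts on late endosomes and lysosomes, had input signals of 46.1 and 49.2 and IP signals of 125 and 133. With a log2 fold of 1.44 in the authors' deposited table it was the lowest Rab, and its pairs gave 1.44 and 1.43. Rab6a, a Golgi Rab, had input signals of 52.6 and 50.9 and IP signals of 179.99 and 170.2, a log2 fold of 1.76 in the authors' deposited table. Rab11a of recycling endosomes (17.6 and 17.7 in input, 54.3 and 57.0 in IP) was at 1.66 in the authors' deposited table. Rab21, which acts in integrin traffic, was at 1.90 in the authors' deposited table. In these 4 genes, named from those with an input signal at or above the protein-coding median, the pairs differed by 0.01 to 0.10 on the log2 scale. In all, 8 Rab GTPases lay below 2, and the others were Rab22a (1.70), Rab26 (1.78), Rab13 (1.86) and Rab39a (1.87) in the authors' deposited table. Their mean input signals lay below that median, and the pairs of Rab13 and Rab26 differed by 0.75 and 0.42.

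At the other end, Rab37, a Rab of secretory granules, had input signals of 1.15 and 1.16 and IP signals of 15.2 and 14.1. Its log2 fold in the authors' deposited table was 3.66, on an input close to the lowest of the table, 1.00. With a pseudocount of 1 the log2 fold of its mean signals was 2.86, below the 3.02 of Vps35 and the 2.96 of Vps8. Rab4b, which acts in fast recycling from early endosomes, had input signals of 4.79 and 5.67, IP signals of 45.8 and 44.9, and a log2 fold of 3.11 in the authors' deposited table. Its paralogue Rab4a had input signals of 8.88 and 7.84, IP signals of 51.5 and 48.1, and a log2 fold of 2.58 in the authors' deposited table. Rab2b, of the route between the endoplasmic reticulum and the Golgi, followed at 2.84 in the authors' deposited table. Rab37 and Rab4b were the only Rab GTPases above 3.

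Genes grouped into families by name differed by 0.17 to 1.19 on the log2 scale, taking for each family of 2 to 4 genes the range of log2 folds of mean signals. The widest apart were Vps33a and Vps33b, at 3.02 and 1.84 in the authors' deposited table. The sources used here do not say how reads shared by near-identical paralogues were counted, so these values are uncertain to that extent.

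Of the Rab partners, Rab3gap1 and Rab3gap2, the catalytic and the other subunit of the complex that switches off Rab3 and also activates Rab18, were the lowest and the highest, at 2.04 and 2.79 in the authors' deposited table. Rab3ip (Rabin8), an exchange factor for Rab8, lay at 2.52 in the authors' deposited table. The 4 Rab11fip genes, which encode Rab11 effectors, lay between 2.26 for Rab11fip4 and 2.60 for Rab11fip3 in the authors' deposited table. Gdi2, a widely expressed inhibitor that keeps GDP-bound Rabs soluble, had input signals of 21.0 and 22.2, IP signals of 138 and 143, and a log2 fold of 2.70 in the authors' deposited table.

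**Figure D2:**
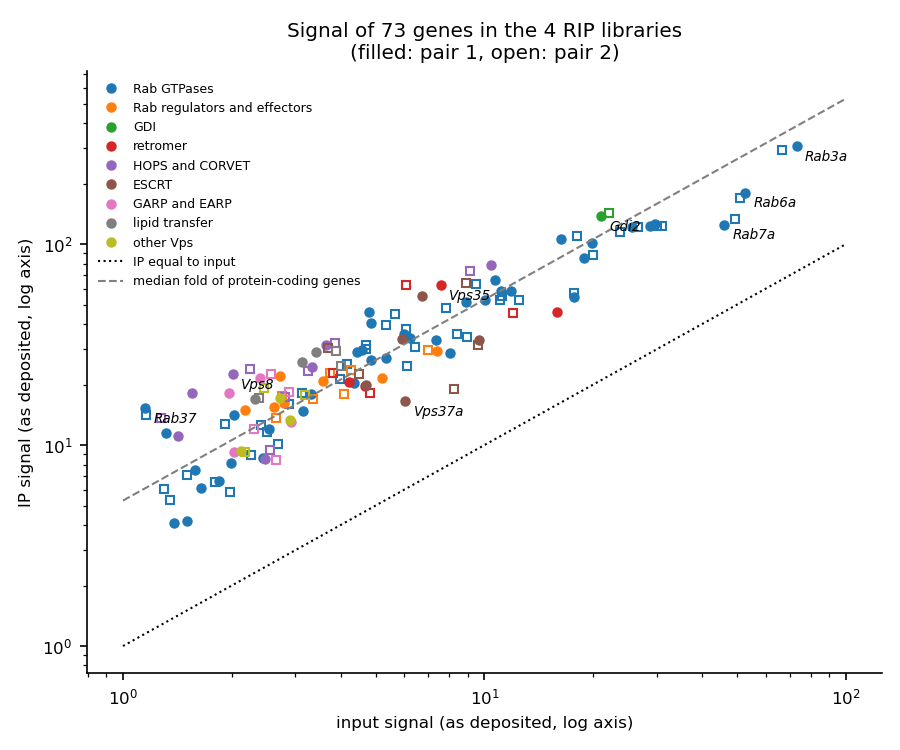
IP signal against input signal, as deposited and on log axes, for 73 of the 74 genes in pair 1 (filled) and pair 2 (open), coloured by role. The dotted line is IP equal to input and the dashed line the median fold of protein-coding genes. Rab3a lies at input signals of 73.0 and 66.6, and Rab37 at input signals of 1.15 and 1.16.

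For the Vps genes the authors' deposited table gave a median log2 fold of 2.82, and 16 of 26 lay above the protein-coding median. The authors' deposited table put the 6 subunits of HOPS and CORVET at a median of 3.05, with 6 of 6 above the protein-coding median and 4 above 3. Vps8, specific to CORVET, had input signals of 2.01 and 2.25 and IP signals of 22.5 and 24.01. At 3.45 in the authors' deposited table it came behind Rab37 alone among the 74. The shared core subunits Vps16 (3.19), Vps11 (3.08) and Vps33a (3.02) and the HOPS subunits Vps41 (2.96) and Vps39 (2.86) followed in the authors' deposited table. Vps33a was the least repeatable of them, with input signals of 1.55 and 2.81, IP signals of 18.2 and 17.4, and log2 folds of 3.55 and 2.63 in the pairs. With a pseudocount of 1 none of the 4 stayed above 3: Vps8 was at 2.96, Vps11 at 2.78, Vps33a at 2.56 and Vps16 at 2.51. Vps33b, the paralogue of Vps33a that works in a separate complex, was at 1.84 in the authors' deposited table.

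Within retromer the subunits spread widely. Vps35, its backbone and a gene of inherited Parkinson disease, had input signals of 7.57 and 6.06, IP signals of 62.3 and 62.5, and a log2 fold of 3.20 in the authors' deposited table. Vps29 had input signals of 15.9 and 11.96, IP signals of 45.8 and 45.5, and a log2 fold of 1.72 in the authors' deposited table. The alternative subunits Vps26a and Vps26b lay at 1.99 and 2.44 in the authors' deposited table. So the pair folds of Vps35 (3.04 and 3.37) did not overlap those of Vps29 (1.53 and 1.93) or of Vps26a (2.07 and 1.91).

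The ESCRT genes spread as widely. Vps28 of ESCRT-I had input signals of 6.74 and 8.90, IP signals of 55.1 and 63.7, and a log2 fold of 2.92 in the authors' deposited table. Vps37a of the same complex had input signals of 6.05 and 8.24, IP signals of 16.5 and 19.0, and the lowest log2 fold of all 74, 1.31 in the authors' deposited table. Vps36 of ESCRT-II was at 1.75, and the ATPases Vps4a and Vps4b, which take ESCRT filaments apart, at 2.74 and 2.21 in the authors' deposited table.

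Among GARP and EARP subunits, Vps53 and Vps52, shared by both complexes, had log2 folds of 3.15 and 2.27 in the authors' deposited table, Vps50 of EARP 2.90 and Vps54 of GARP 1.90. The 3 Vps13 genes, bridge-like lipid transfer proteins, lay close together at 2.82 (Vps13a), 2.86 (Vps13d) and 3.00 (Vps13c) in the authors' deposited table. Of the remaining genes, Vps45, a regulator of SNARE assembly, was at 2.81, Vps72 at 2.35 and Vps9d1, with a domain found in Rab5 exchange factors, at 2.11 in the authors' deposited table. Subunits thus lay on both sides of the protein-coding median in retromer, ESCRT and GARP, while the Vps13 genes stayed within 0.17. That is less than the 0.44 between the 2 pairs of Vps13a alone.

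The ac4C peak lists allow the comparison of bone cancer pain with control that the RIP does not. A peak is a stretch that the authors' caller found enriched in IP over input, and its fold enrichment and false discovery rate (FDR) are the authors'. Peaks were kept at an FDR of at most 0.05, because bone cancer pain list 1 held many peaks above that limit: 129 in 53 of the 74 genes, 127 of them at the same fold of 10.6 and FDR of 0.0562. Within the limit there were 69 peaks in 36 of the 74 genes, 48.6% against 37.4% of protein-coding genes. In the RIP table the median of the mean input signal was 4.58 over the 74 genes and 3.33 over protein-coding genes. Protein-coding genes with a peak also had a higher median input signal than those without, 4.51 against 2.82. The part of this in the higher share was not tested.

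By role, a peak was present in 12 of 39 Rab GTPases (30.8%), 6 of 7 Rab regulators and effectors, Gdi2 and 16 of 26 Vps genes (61.5%). Against the 37.4% of protein-coding genes, the Rab GTPases thus lay below and the Vps genes above. The median mean input signal went the other way, at 5.47 for the Rab GTPases and 3.43 for the Vps genes, against 3.33 over protein-coding genes. The part of input signal in these shares was not tested. The Vps genes were 4 of the 7 grouped as HOPS and CORVET, 3 of 5 for ESCRT, 3 of 4 for GARP and EARP and 2 of 4 for retromer. The rest were 2 of 3 Vps13 genes, and Vps72 and Vps9d1. The 12 Rab GTPases with a peak had a median mean input signal of 17.4, and the 27 without one 4.66, in a signal whose scaling to length is not stated. Even so, Rab3a and Rab7a, with mean inputs of 69.8 and 47.6, had no peak in any list. The families Rab2, Rab3, Rab8 and Rab33 had no peak within the limit in their 9 genes, though 5 of the 9 had a deposited peak above it. Paralogues were split in other families: Rab4b had a peak and Rab4a none, Rab5b and Rab5c had one and Rab5a none, and the same held for Vps26b against Vps26a, Vps33a against Vps33b, Vps13c and Vps13d against Vps13a, and Rab11fip3, Rab11fip4 and Rab11fip5 against Rab11fip2. Both genes of the Rab6, Rab11 and Vps4 families and both Rab3gap subunits had a peak.

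**Figure D3:**
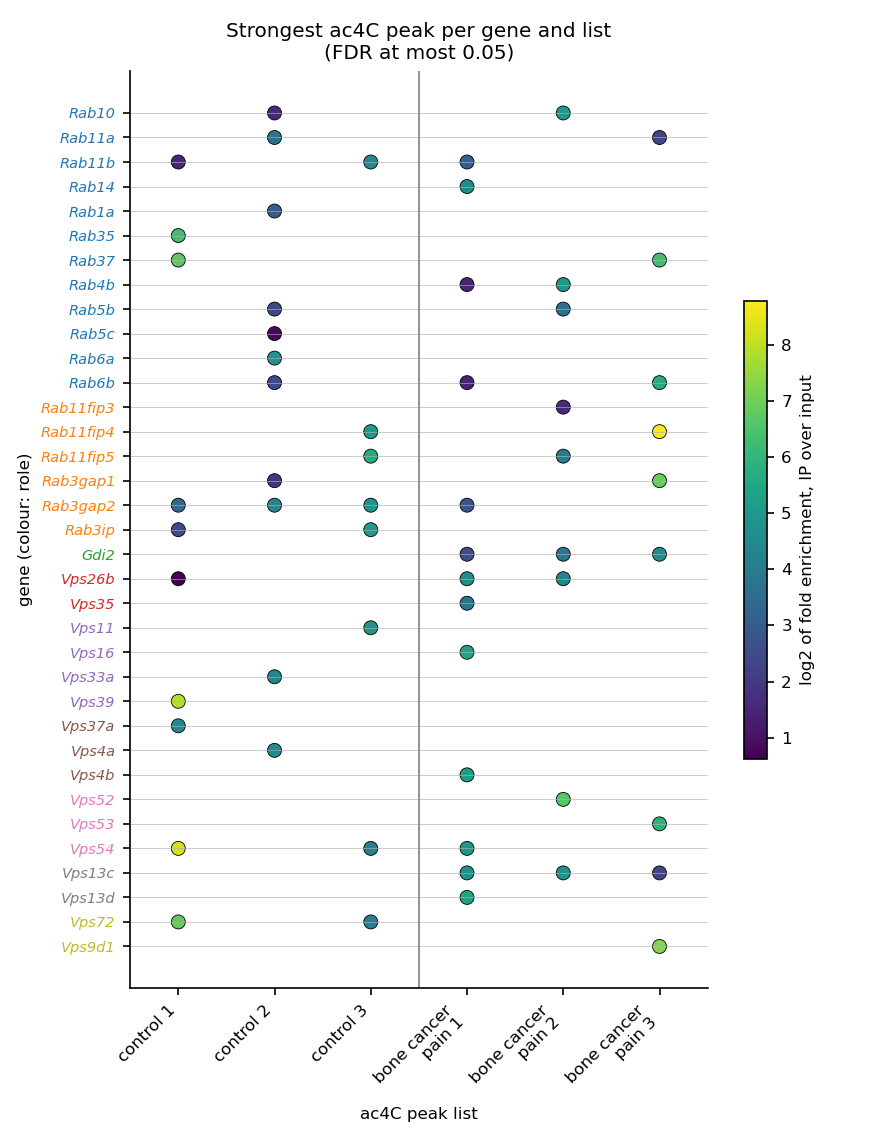
The 35 genes drawn of those with an ac4C peak at an FDR of at most 0.05 (y axis, names coloured by role) in each of the 6 lists (x axis, control left of the line and bone cancer pain right). The colour of a point is the log2 fold enrichment of the gene's strongest peak in that list. Gdi2 and Vps13c have points in all 3 bone cancer pain lists and in no control list, and Rab3gap2 in all 3 controls and in bone cancer pain 1.

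Few of these genes had a peak again and again. Of the 36, 19 had a peak in 1 list alone, 17 in 2 or more (23% of the 74, against 12.8% of protein-coding genes) and 7 in 3 or more (9.46%, against 3.86%). None of the 74 had a peak in 5 or 6 lists. Rab3gap2 had the most, 4 lists, with folds of 10.7, 19.6 and 27.9 in the controls and 7.05 in bone cancer pain 1. The genes in 3 lists were Gdi2, Rab6b, Rab11b, Vps13c, Vps26b and Vps54.

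In the controls 10, 11 and 8 of the 74 genes had a peak, and in bone cancer pain 13, 9 and 10. This is 9.67 ± 1.53 against 10.7 ± 2.08 genes (SD, n = 3 lists each), a difference within the spread of the lists (two-sided exact permutation test, p = 0.7, adjusted p = 0.8 over 3 tests). With 3 lists against 3 the smallest p such a test can give is 0.1. In percent of the 74 genes, the controls had 13.5%, 14.9% and 10.8%, against 8.33%, 9.79% and 9.45% of protein-coding genes in the same lists. The bone cancer pain lists had 17.6%, 12.2% and 13.5%, against 8.68%, 11.5% and 7.97%. The share was above that of protein-coding genes in all 6 lists, least so in bone cancer pain 2. With all deposited peaks it was below in bone cancer pain 1 (77%, against 81.8%) and in bone cancer pain 2 (16.2%, against 20.3%). Set against the length of each list, the 74 genes made up 1.07 ± 0.170% of all genes with a peak in the controls and 1.18 ± 0.344% in bone cancer pain (exact permutation test, p = 0.8, adjusted p = 0.8). Any control list gave a peak in 23 of the 74 genes (31.1%, against 23.1% of protein-coding genes) and any bone cancer pain list in 25 (33.8%, against 23.5%).

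**Figure D4:**
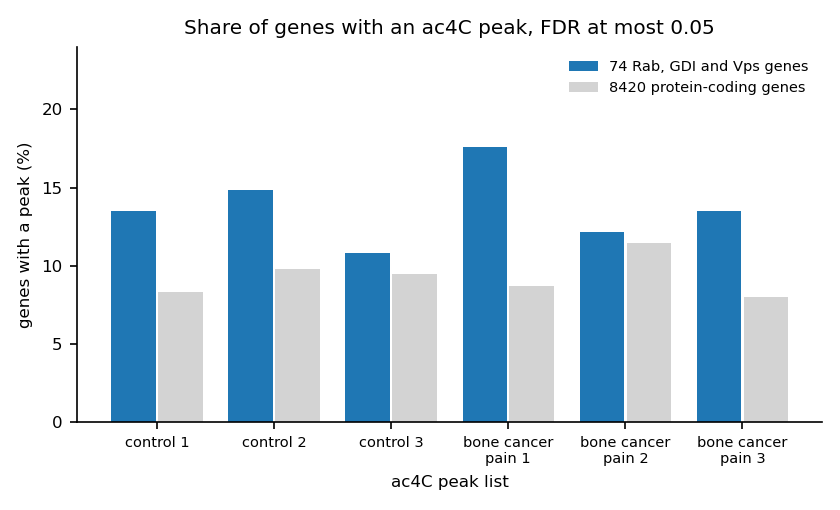
Percent of the 74 Rab, GDI and Vps genes (blue) and of the 8420 protein-coding genes (grey) with an ac4C peak at an FDR of at most 0.05 in each list. Each bar is 1 list, so there is no error bar. The blue bars run from 10.8% to 17.6%, and the control and bone cancer pain bars overlap.

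Peak strength also overlapped between the groups. For these genes the median fold of their peaks was 22, 5.47 and 27.9 in the controls and 14.1, 18.3 and 36.8 in bone cancer pain. On the log2 scale the means of these were 3.90 ± 1.27 and 4.40 ± 0.72 (SD, n = 3, exact permutation test, p = 0.7, adjusted p = 0.8). The strongest peak of each control list was in Vps54 (fold 305), Rab6a (28.3) and Rab11fip5 (50.2). In bone cancer pain it was in Vps16 and Vps13d (both 42.3), Vps52 (99.3) and Rab11fip4 (442). None of these strongest peaks recurred in the same gene as the strongest of another list.

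A gene counted as gained when it had a peak in 2 or 3 lists of bone cancer pain and in none of the controls, and as lost when the reverse held. Gained were 3 of the 74 (4.05%, against 1.82% of protein-coding genes): Gdi2, Vps13c and Rab4b. Lost were 2 (2.70%, against 1.75%): Rab3ip and Vps72. No single gene can pass a test at 3 lists against 3, and these counts are a description.

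Gdi2, which recycles Rabs from membranes, had folds of 6, 14.8 and 24.3 in bone cancer pain lists 1, 2 and 3, and no peak in any control list at any FDR. Its peaks had FDRs of 3.16e-48, 1.58e-15 and 2.51e-26. Vps13c, a lipid transfer protein at contacts of the endoplasmic reticulum with late endosomes, had its strongest peaks at folds of 27.5, 26.1 and 4.76. It had 3 peaks in list 1 and 1 in each of the others, and the control lists showed 1 peak above the limit, in control 2, at an FDR of 0.0759. Rab4b had folds of 2.65 (FDR 0.0191) and 30.1 (FDR 1.58e-23) in lists 1 and 2 and none in list 3. Thus Gdi2 and Vps13c had a peak in all 3 bone cancer pain lists, and Rab4b was short of 1. Without list 1 or without list 2 Rab4b was no longer gained, nor at an FDR of at most 0.01 or with lists cut to equal length. Gdi2 and Vps13c stayed gained at both of these settings and without any 1 of the 6 lists. The rule fixes the outcome without single lists from the number of lists of each gene, so that outcome adds no support.

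With every deposited peak counted, whatever its FDR, 66 of the 74 genes had a peak (89.2%, against 91.2%), 8 genes were gained (10.8%, against 11.6%) and 0 lost (against 0.76%). The 8 kept Gdi2 and Rab4b and added Rab11fip2, Rab11fip3, Rab23, Vps52, Vps53 and Vps9d1, while Vps13c dropped out through its peak in control 2.

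Rab3ip had folds of 5.34 (FDR 0.0148) and 33.5 (FDR 1.32e-06) in controls 1 and 3. Vps72 had folds of 110.1 and 16.7 (FDR 0.0229) in the same lists. Neither had a peak within the limit in bone cancer pain. Above it, Rab3ip had 2 peaks and Vps72 had 1, all in bone cancer pain 1 at an FDR of 0.0562. Both calls rest on controls 1 and 3, so by the rule they fail without either of these, and 0 genes were then lost. Without bone cancer pain 1, 5 were lost, with Rab11b, Rab3gap2 and Vps54 added.

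Peaks of 1 gene seldom lay at 1 place. The 69 peaks formed 60 separate stretches, of which 9 (15%) had a peak in 2 lists and none in 3, where a shared exonic base was enough. Among protein-coding genes 344 of 4845 stretches (7.10%) had a peak in 2 or more lists. Without bone cancer pain 1, 4 such stretches of these genes were left. Of the 9, those in Gdi2, Rab4b and Vps13c were shared between bone cancer pain lists, those in Rab3ip and Vps72 between controls, and those in Rab5b, Rab11b, Rab37 and Vps54 between a control and a bone cancer pain list. Only 3 of the 9, in Rab11b, Rab3ip and Vps72, shared at least 50% of the shorter peak.

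Coordinates are those of the lists, in rn6 per the submitters' processing notes, and the exon or UTR is not given, as no annotation of that build was used here. Gdi2 had a peak on the minus strand at chr17:70299421-70299658 in bone cancer pain 1 and at chr17:70299272-70299450 in bone cancer pain 2, with 30 bases in common. The third, in bone cancer pain 3, lay 9576 bases from the nearer of these, at chr17:70309235-70310508 in 2 exon blocks. So the 3 peaks of Gdi2 fell at 2 places.

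Rab4b had peaks on the minus strand of chromosome 1, at chr1:83979592-83983188 in 2 blocks and at chr1:83979445-83979622, with 31 bases in common. For Vps13c, the weakest of the 3 peaks of list 1 (fold 3.06) shared 61 bases with the peak of list 3, near chr8:73697146-73699230. The strongest peak of list 1 (fold 27.5), at chr8:73788568-73789757, shared no base with a peak of another list. The peak of list 2, at chr8:73799710-73800947, lay 9952 bases from it. Rab6b had 4 peaks in 3 lists within chr8:111665252-111668001, with no base in common. Rab3gap2 had 5 peaks in 4 lists on chromosome 13, also with no base in common.

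Rab11b had the closest match between the groups. Its peaks in control 3 (chr7:18599384-18599592, fold 22.3) and bone cancer pain 1 (chr7:18599384-18599562, fold 8.58) began at the same base and shared 179 bases, the whole of the shorter peak. The peak of control 1, at chr7:18599058-18599236 with a fold of 2.76, lay 147 bases away. Vps72 shared 148 bases, again the whole of the shorter peak, between controls 1 and 3 on chromosome 2. Rab3ip shared 150 bases between the same lists on chromosome 7.

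**Figure D5:**
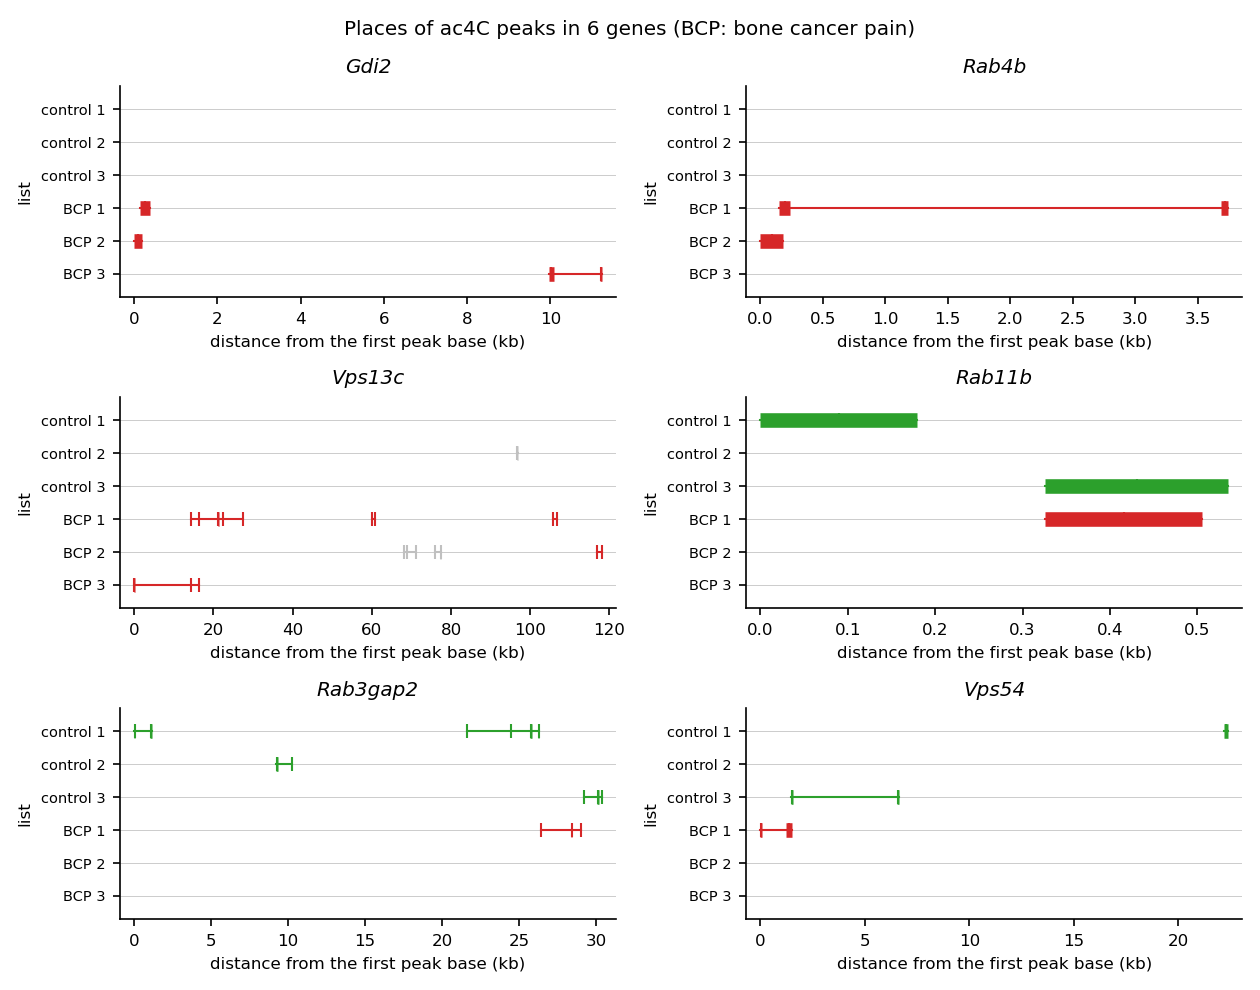
Places of the ac4C peaks of 6 genes in each list (y axis), as distance from the first base of any peak drawn (x axis, kb), with exon blocks as thick bars or ticks and the span between blocks as a thin line. Green is control and red is bone cancer pain (BCP) at an FDR of at most 0.05, and grey marks peaks above that limit outside bone cancer pain 1. The control 3 and bone cancer pain 1 peaks of Rab11b begin at the same base, and the peaks of Rab3gap2 do not overlap.

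In form the peaks were like those of other genes. The 69 peaks covered 120 to 360 exonic bases with a median of 180, the same as for protein-coding genes. Of them 27 (39.1%) lay in a single exon block, against 43.7% of the 5228 peaks of protein-coding genes, and their median fold of 19.6 equalled that of protein-coding genes.

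Genes that work with the Rabs and Vps complexes, 212 in 7 lists, had a median log2 fold of 2.55 in the authors' deposited table, and 84 (39.6%) had a peak. Of these, 3 were gained (1.42%) and 3 lost (1.42%), against 1.82% and 1.75% of protein-coding genes. The genes of the Rab cycle (exchange factors, GTPase activators and effectors) had, by the authors' deposited table, a median of 2.40, and 27 of 59 had a peak. Among them Dennd4a, of a family of Rab exchange factors, was gained, and Sgsm1, of a family of Rab GTPase activators, was lost. Retromer partners and sorting nexins had a peak in 8 of 26, further ESCRT genes in 6 of 18, HOPS partners with phosphoinositide kinase and lysosome positioning genes in 3 of 9, and none of these was gained or lost. Golgi tethers and exocyst had a peak in 14 of 33 with Golga7 gained, coat proteins in 14 of 34 with Ap1b1 lost, and SNAREs in 12 of 33 with Vamp4 gained.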

How the data were processed

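The 6 ac4C peak lists, each from 1 IP and input pair, and 1 RIP table of 2 IP and 2 input libraries were used as deposited. Per the submitters' processing notes, cutadapt 2.5, HISAT2 2.1.0, featureCounts 1.6.3, DESeq2 and HOMER 4.10.4 were used with the rn6 build, with no role given to each. For the program that called the peaks the sources used here give no name. Peaks were called by the authors per pair and not on pooled replicates, per the labels. Per the file headers, a deposited peak carries its enrichment as a ratio or fold, its p-value, log10 scores of p and FDR, and its exon blocks. In the RIP table the authors deposited a signal per gene and library in a unit not stated, a log2 fold, a p-value and an FDR. Per the table's name it holds genes past a log2 fold of 1 and a p-value of 0.05 only. The depth of the libraries is unknown, and the number of replicates limits the precision.

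The genes, the gene lists, the FDR limit and the tests were chosen with earlier results of these data known. From the deposited values the following were computed with Python 3.11.15, pandas 2.3.3, numpy 2.4.6, scipy 1.17.1 and matplotlib 3.10.9. Peaks were joined to genes by identifier and kept at an FDR of at most 0.05. Per-list values were compared with two-sided exact permutation tests over the lists, with Benjamini-Hochberg adjustment over the 3 tests. Pair folds are log2 of IP over input with no pseudocount. Background shares are over the 8420 protein-coding genes of the table. The calling of gained and lost genes and the tests were tested on simulated data. Some items are not reported here. Named genes were Gdi2, genes gained or lost, those with peaks in 3 or more lists, the 8 highest and 8 lowest folds among genes with a mean input signal at or above the protein-coding median of 3.33, the 5 highest inputs, the ends of each role group, the strongest peak of each list, and paralogues split by peaks. Other genes named beside these, such as single genes of the related lists, were chosen after their values were seen. Positions are 1-based.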

Additional observations from a re-analysis of the deposited data

How the results depend on the processing

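Of 78 values recomputed for the comparisons under other settings, 47 were labelled the same, 23 moved and 8 changed sign. A difference was labelled by its sign alone, and a count by a fixed limit on its ratio to the main count. The RIP median was labelled by the SD of its 2 pair medians, 0.00216, so 2.39 counted as moved from 2.40. Gained and lost counts of Rab GTPases or Vps genes alone could not rise. With the replicate number as a block, a difference stays the same by construction. The size of a difference could still move among the 47. No test could pass a threshold of 0.05, because the number of lists fixes the smallest possible p. For the exact permutation test of 3 lists against 3 it is 0.1, and leaving out a list does not lower it. For genes with a peak per list, the difference of bone cancer pain minus control was 1.00, ran from -0.17 (without bone cancer pain 1) to 1.83 when single lists were left out, and was -0.33 for Rab GTPases alone. It was 2 at an FDR of at most 0.01 and 2.67 with Rab regulators and Vps72 left out, the last chosen after seeing the data. With all deposited peaks it was 12.7 (14 ± 2.65 against 26.7 ± 26.3 genes, SD, n = 3 lists each). There bone cancer pain 1 had 57 genes, and bone cancer pain 2 and 3 had 12 and 11. For the percent of genes with a peak, the difference was 0.104, with -0.461 for all deposited peaks (exact permutation test, p = 0.1), -0.0330 for Rab GTPases alone, 0.238 at an FDR of at most 0.01 and -0.0619 to 0.281 without single lists. With all deposited peaks the bone cancer pain lists had 0.196%, 0.593% and 1.02%, lowest in list 1, which held 50417 deposited peaks. The controls had 1.06 ± 0.0257%. For the log2 median fold it was 0.50, with -0.16 at an FDR of at most 0.01, -0.52 for Rab GTPases alone and -0.23 (without control 2) to 0.95 without single lists. Gained genes numbered 3, and 8 with all deposited peaks, 1 for Rab GTPases alone, 2 (without Rab4b) at an FDR of at most 0.01 and with lists of equal length, 1 for Vps genes alone and 2 to 4 without single lists. Lost genes numbered 2, and 0 with all deposited peaks, at an FDR of at most 0.01, with lists of equal length, with 3 of 3 lists required and for Rab GTPases alone, 1 for Vps genes alone, and 0 to 5 without single lists. Stretches with a peak in 2 lists numbered 9, and 3 where 50% of the shorter peak had to be shared, 18 with all deposited peaks, 5 at an FDR of at most 0.01 and 4 to 8 without single lists. The median log2 fold of the RIP, 2.40 in the authors' deposited table, was 2.39 from pair 1 alone and 2.39 from pair 2 alone, 2.34 for genes with a mean input at or above the protein-coding median, 2.16 with a pseudocount of 1 (2.08 for protein-coding genes), 2.32 for Rab GTPases and 2.82 for Vps genes. These last 2 medians were chosen after seeing the data. With the replicate number as a block the differences were the same, 1.00, 0.104 and 0.50, and the exact sign-flip p-values were 0.75, 1 and 0.75, where 0.25 is the smallest that 3 pairs allow. A check of pairing used the 3149 protein-coding genes with a peak in any list. Deviations of same-numbered control and bone cancer pain lists had correlations of -0.0031, -0.00048 and 0.0013. Those of differently numbered lists ran from -0.012 to 0.0134. With peaks seldom shared between lists, such values cannot show whether lists of the same number were paired.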
